A study of Mus musculus with 8 samples.

Results

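The hedgehog pathway genes described here are Hhip and 8 core components of the pathway, 9 genes of the 55421 in the count table. Hhip was chosen by its measured level, which was far higher in untreated cells that lack the miR-290-295 microRNA cluster than in cells that have it. The others (Ptch1, Smo, Sufu, Gli1, Gli2, Gli3, Boc and Gas1) were listed by their role in the pathway. All values of these 9 genes in that comparison are therefore given as a description, with no test, and nothing is supported with them. All 9 passed the filter on low counts.

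The cells were E14 mouse embryonic stem cells of a 129/Ola background, grown on gelatin in serum with LIF, and their 3′ mRNA ends were sequenced in 4 groups of 2 biological duplicates. Untreated wild-type cells (WT) and untreated cells with the cluster deleted (KO) were processed as one set. In the other set, KO cells had received an siPOOL, a mixture of small interfering RNAs, at 5 nM and for 36 hours. It was directed at the transcription factor gene Tfap4 (siTfap4) or was a negative control (siNeg). All cells of that set thus carry the deletion, no group restores the cluster, and no WT cells received an siPOOL. Whether the KO duplicates come from 1 clone or from several is not given in the labels. The titles of the untreated samples end in codes that are not explained, and WT replicate 1 and KO replicate 2 share one of them, CC.

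Hedgehog ligands bind the receptor PTCH1, which in their absence holds the membrane protein SMO inactive. Active SMO, working at the primary cilium, frees the GLI transcription factors from their partner SUFU, and GLI proteins then switch on target genes. PTCH1, GLI1 and HHIP are themselves such targets in many tissues, so that their transcripts are widely read as a measure of pathway output. HHIP sits at the cell surface, binds hedgehog ligands and keeps them from PTCH1.

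Counts per library lay between 8326675 and 12726123. As a check of the labels, WT libraries had 88 and 39 counts on the cluster's entries for the plus strand, and each of the 6 KO-cell libraries had 0. Tfap4 stood at 34.4 and 37.4 CPM (the count scaled to library size with TMM factors) in siNeg and at 12.4 and 15.8 CPM in siTfap4. Summed pluripotency markers (8 genes, all detected) ran from 2850 to 3270 CPM in the WT, KO and siNeg libraries and stood at 2190 and 2310 CPM in siTfap4. Among 9 fibroblast or feeder markers, Col3a1, Postn and Fap held no count in any library. The summed level was 28.8 and 49.9 CPM in WT and 6.84 to 20.1 CPM in KO cells. Nearly all of it was Thy1, at 26.5 and 48.3 CPM in WT and 9.56 and 19.7 CPM in KO. Thy1 and Col1a1, the 2 tested genes of the list, were both lower in KO (edgeR adjusted p = 0.0244 and 0.0432), where 9.95% of all genes were called. Mesoderm markers (8 genes) summed to between 9.94 and 16.3 CPM in every library. The edgeR p-values set each difference against the spread between duplicates, pooled over the 4 groups, in a fit that also draws on the spread of other genes.

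The microRNAs that the KO cells lack include 5 in the RefSeq table (build GRCm38.p6) whose 3p arms share the bases AAGUGC. They are shown because a match to such a seed in a 3′ UTR is the letter pattern that the family pairs with. Capitals mark the seed, bases 2 to 8 from the 5′ end. The first 3 sequences share the seed AAGUGCU, while miR-290a-3p and miR-291b-3p differ from them in base 8.
mmu-miR-291a-3p: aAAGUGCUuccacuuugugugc
mmu-miR-294-3p: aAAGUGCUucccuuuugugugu
mmu-miR-295-3p: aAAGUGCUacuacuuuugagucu
mmu-miR-290a-3p: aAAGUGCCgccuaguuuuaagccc
mmu-miR-291b-3p: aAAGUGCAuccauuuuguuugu

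The longest annotated 3′ UTR of each of the 9 genes (GENCODE M21, GRCm38) was searched for the 7-base words that pair with these seeds. These are AGCACTT for the seed shared by miR-291a-3p, miR-294-3p and miR-295-3p, then GGCACTT for miR-290a-3p, and lastly TGCACTT for miR-291b-3p. Each of 5 genes held 1 word, and Gli1, Gli2, Gli3 and Gas1 held none. Among the 12780 tested genes with a 3′ UTR, 32.3% held at least 1 of the words. The Hhip window, chr8:79971759-79971788 on the minus strand, matches the seed of miR-291b-3p. The Ptch1 window, chr13:63511294-63511323 on the minus strand, matches that of miR-290a-3p, and the Sufu window, chr19:46487333-46487362 on the plus strand, that of miR-291a-3p, miR-294-3p and miR-295-3p. These windows are shown 5′ to 3′ with the word in capitals.
Hhip: acagaacgttgTGCACTTagctttttattt
Ptch1: cctgtttgctgGGCACTTacagcagagttc
Sufu: taagctcacctAGCACTTagaggcagaccc
The remaining words were TGCACTT in Smo and in Boc. A match is a run of letters in an annotated UTR and was not tested for binding. The Hhip UTR is 6480 bases long and that of Gli1 165, so the room for a match differs widely between the genes.

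Promoters were in the RefSeq table for 7 of the 9 genes, all but Gli1 and Boc, as 250 bases before and 50 after the annotated start. Those of Hhip, Ptch1 and Gli2 are shown, since the results below turn on these genes. Capitals mark the bases from the annotated start on. The windows are chr8:80057959-80058258, chr13:63565686-63565985 and chr1:119053570-119053869 in GRCm38.p6, all on the minus strand. That of Ptch1 covers a start inside the gene, whose 5′ end in GENCODE M21 is at 63573598.
Hhip: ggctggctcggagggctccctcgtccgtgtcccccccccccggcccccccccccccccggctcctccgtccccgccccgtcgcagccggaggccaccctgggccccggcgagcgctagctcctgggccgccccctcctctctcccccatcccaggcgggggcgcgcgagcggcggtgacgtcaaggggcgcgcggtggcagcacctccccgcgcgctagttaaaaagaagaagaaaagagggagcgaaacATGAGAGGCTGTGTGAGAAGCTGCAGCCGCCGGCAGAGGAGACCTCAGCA
Ptch1: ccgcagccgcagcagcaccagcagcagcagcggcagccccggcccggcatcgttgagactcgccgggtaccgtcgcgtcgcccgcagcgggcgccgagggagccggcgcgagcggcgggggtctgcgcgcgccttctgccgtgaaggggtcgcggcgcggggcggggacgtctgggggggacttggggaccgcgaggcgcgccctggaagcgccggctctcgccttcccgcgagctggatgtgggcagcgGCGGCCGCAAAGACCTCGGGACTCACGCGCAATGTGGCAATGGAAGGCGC
Gli2: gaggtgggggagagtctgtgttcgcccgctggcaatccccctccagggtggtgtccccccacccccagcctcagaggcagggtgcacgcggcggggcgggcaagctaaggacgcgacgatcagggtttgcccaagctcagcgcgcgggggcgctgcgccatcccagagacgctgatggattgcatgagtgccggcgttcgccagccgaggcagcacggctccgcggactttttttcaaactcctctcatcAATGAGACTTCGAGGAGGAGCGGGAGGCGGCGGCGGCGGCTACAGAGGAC
All of these windows are rich in CpG, with 30 in Hhip, 47 in Ptch1 and 28 in Gli2 against a median of 7 over all promoters of the table. The GLI word GACCACCCA (both strands) occurred in 0.253% of all 32851 promoters, and the E-box CAGCTG, a word that TFAP4 is known to bind, in 16.3%. Neither word occurred in the windows of the 7 genes, which says only that these letters are not there. Gli1 and Boc, and the 5′ end of Ptch1, were not searched.

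Hhip, the ligand antagonist, stood far higher in every library of KO cells than in WT cells. The gene (ENSMUSG00000064325) lies on chromosome 8 at 79965851 to 80058006 in GRCm38, on the minus strand. The WT libraries held 24 and 21 counts of it, the KO libraries 1391 and 1105, the siNeg libraries 958 and 639 and the siTfap4 libraries 395 and 423. Scaled to depth, the level was 1.95 and 2.04 CPM for WT, 106 and 91.1 CPM for KO, 82.1 and 61.8 CPM for siNeg and 50.3 and 49.9 CPM for siTfap4. No groups overlapped, and their order from low to high was WT, siTfap4, siNeg and KO. Groups of 2 often do not overlap: this held for 57.5% of all tested genes between KO and WT, for 58.3% between siTfap4 and siNeg and for 44.9% between siNeg and KO.

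Between untreated KO and WT cells the log2 fold change of Hhip was 5.62 (SE 0.32), from means of 98.7 ± 10.8 and 1.99 ± 0.06 CPM (SD, n = 2 each). That difference is what led to the choice of the gene. The siPOOL set is no independent check, since the genes were chosen with earlier results of these data known. In that set the lowest of the 4 libraries of KO cells stood at 49.9 CPM, while the highest WT library stood at 2.04 CPM. Since no WT library belongs to that set, genotype and set cannot be told apart in this second comparison.

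Neighbouring groups of KO cells were not told apart by the fit. Hhip was at 50.1 ± 0.31 CPM in siTfap4 against 72.0 ± 14.3 CPM in siNeg, a log2 fold change of -0.52 (SE 0.24; adjusted p = 0.152 in edgeR). With a correction for the base composition of transcript 3′ ends, this value was -0.01 (adjusted p = 0.985). In siNeg it was lower than in untreated KO cells by a log2 fold change of -0.46 (SE 0.24; adjusted p = 0.479). The last comparison crosses the sets, so transfection and set cannot be told apart there. It also reuses the untreated KO libraries in which Hhip was chosen for its high level. A lower value in siNeg could follow from that choice, so this p is no fair test.

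**Figure D1:**
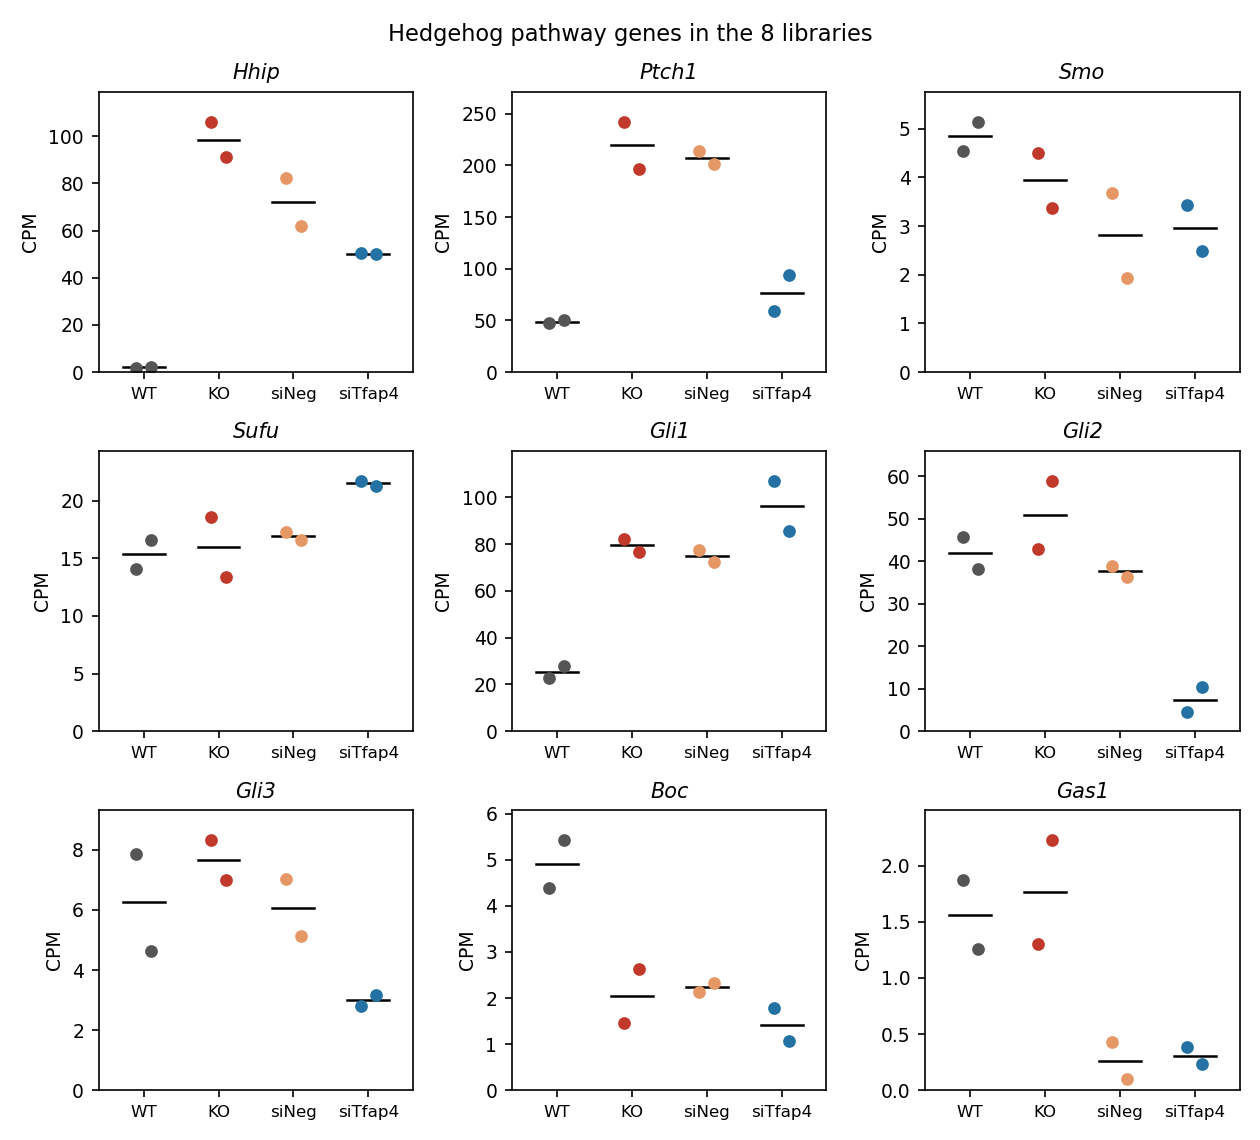
Levels of the 9 hedgehog pathway genes in the 8 libraries, in CPM on linear axes that start at 0. Each point is a library and each bar the mean of a group of 2. Hhip, Ptch1 and Gli1 are higher in KO and siNeg than in WT, and in siTfap4 Ptch1 and Gli2 are low while Gli1 stays between 85.6 and 107 CPM.

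Among the other pathway genes, Ptch1 and Gli1, both targets of the pathway, were also higher in KO than in WT cells. Ptch1, the ligand receptor (ENSMUSG00000021466; chromosome 13, 63508328 to 63573598, minus strand), stood at 47.4 and 50.3 CPM in WT and at 242 and 197 CPM in KO. Its log2 fold change was 2.17 (SE 0.26), a ratio of mean CPM of 4.49. Gli1, a GLI activator (ENSMUSG00000025407; chromosome 10, 127329882 to 127341974, minus strand), stood at 22.8 and 27.9 CPM in WT and at 82.1 and 76.8 CPM in KO. Its log2 fold change was 1.65 (SE 0.24).

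The ranges of both genes in WT and KO were far apart. In siNeg, KO cells of the other set, Ptch1 was at 214 and 201 CPM and Gli1 at 77.4 and 72.4 CPM, close to the untreated KO libraries. The fitted differences between siNeg and KO were -0.08 (SE 0.25; adjusted p = 0.938) for Ptch1 and -0.09 (SE 0.23; adjusted p = 0.928) for Gli1. Gli1 overlaps the protein-coding gene Arhgap9 on the other strand, and the strand setting of the counting is not given in the sources used here. Arhgap9 held at most 163 counts in a library, against 280 to 1074 for Gli1.

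The other transcription factors of the pathway, and the proteins that act before them, did not share this difference in size. Gli2, the main activator in many tissues (ENSMUSG00000048402; chromosome 1, 118834132 to 119053619, minus strand), was at 45.7 and 38.3 CPM in WT and at 43.0 and 58.9 CPM in KO, with overlapping ranges. Gli3, which acts largely as a repressor (ENSMUSG00000021318, chromosome 13), was at 7.88 and 4.65 CPM in WT and at 8.33 and 7.01 CPM in KO. The log2 fold changes were 0.28 (SE 0.29) and 0.28 (SE 0.36).

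Smo, the signal transducer (ENSMUSG00000001761, chromosome 6), differed by -0.29 (SE 0.40), and Sufu, the brake on GLI proteins (ENSMUSG00000025231, chromosome 19), by 0.06 (SE 0.28), both on the log2 scale. Smo was at 4.55 and 5.14 CPM in WT and at 4.51 and 3.38 CPM in KO. Sufu was at 14.1 and 16.6 CPM in WT and at 18.6 and 13.4 CPM in KO. Read against their errors, neither gene moved by more than 1 SE.

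Of the coreceptors, which present ligand to PTCH1, Boc was lower in KO and Gas1 similar. Boc (ENSMUSG00000022687, chromosome 16) was at 4.39 and 5.43 CPM in WT and at 1.45 and 2.64 CPM in KO, from 110 and 51 counts over the groups, a log2 fold change of -1.26 (SE 0.43). In all 6 libraries of KO cells Boc lay between 1.06 and 2.64 CPM, below both WT libraries. Between KO and WT alone, 57.5% of all tested genes did not overlap. The siPOOL libraries have no WT cells in their set, so genotype and set cannot be told apart for them. Gas1 (ENSMUSG00000052957, chromosome 13) was at 1.87 and 1.26 CPM in WT and at 1.30 and 2.23 CPM in KO, a log2 fold change of 0.14 (SE 0.51).

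No calls are given for the 9 genes in this comparison, since it served to choose them. Over all 15137 tested genes 9.95% were past the threshold of an adjusted p under 0.05 in edgeR, 5.99% higher and 3.96% lower in KO. The median log2 fold change was 0.28 over the 9 genes and -0.01 over all tested genes. The former is the value of Gli2 and Gli3, within 1 SE of 0 (SE 0.29 and 0.36). The 9 genes include Hhip, chosen by this difference, so the medians are a description and no test.

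Markers of endoderm moved with the same comparison. Of 12 listed genes 10 were tested, and 7 fell in KO, where 9.95% of all genes were called. Among them were the endoderm transcription factor genes Gata6, with means of 13.8 CPM for WT and 1.36 CPM for KO (adjusted p = 0.000166), and Sox17, at 4.65 and 0.709 CPM (adjusted p = 0.00159), and the receptor gene Pdgfra, at 4.01 and 0.318 CPM (adjusted p = 0.00211). The summed level of the list was 304 and 282 CPM in WT and between 72.7 and 125 CPM in the 6 libraries of KO cells; Ttr and Afp, the untested genes of the list, held at most 1 count in any library. Of 10 neural markers 4 were tested. Pax6 rose, while Tubb3, Sox1 and Nes were not called (adjusted p = 0.309, 0.860 and 0.353, edgeR). The summed level was 33.4 and 52.0 CPM in WT and 63.2 to 96.5 CPM in KO cells. Its largest part was Tubb3, at 23.6 and 38.1 CPM in WT and 60.9 and 30.8 CPM in KO, with overlapping ranges. In bulk samples fewer cells of a type and less RNA per cell cannot be told apart, and the part of these cells in the hedgehog values was not tested.

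**Figure D2:**
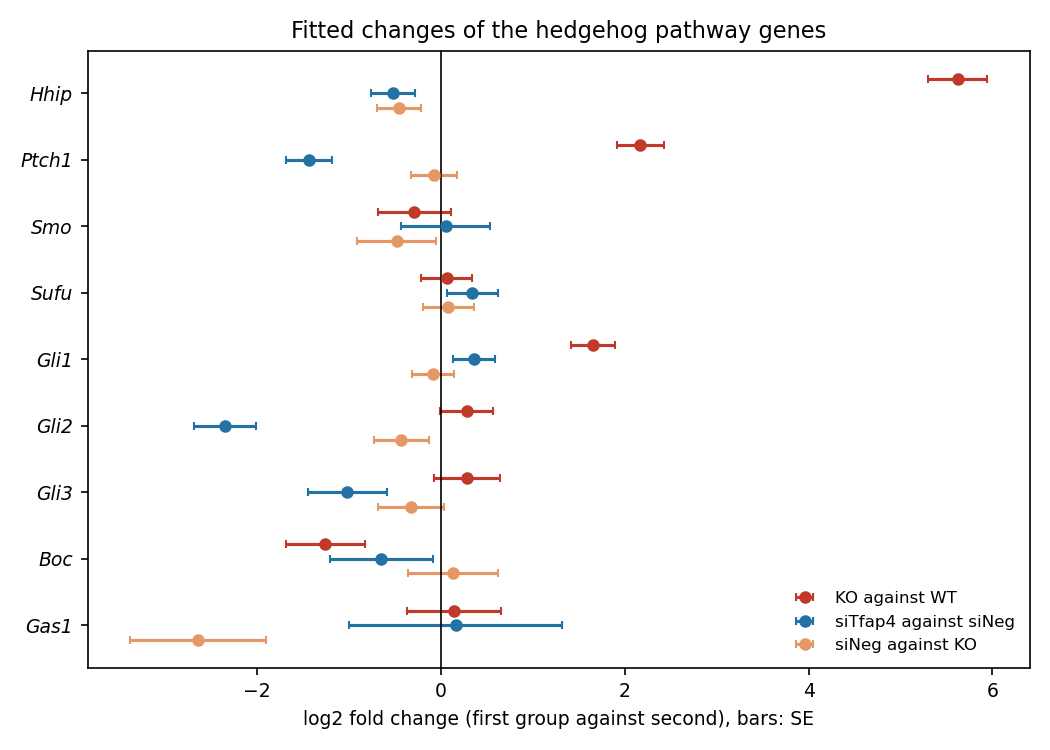
Fitted log2 fold changes of the 9 genes in the 3 comparisons, with bars of 1 SE. In KO against WT, Hhip (5.62), Ptch1 (2.17) and Gli1 (1.65) lie far to the right, and in siTfap4 against siNeg, Gli2 (-2.35) and Ptch1 (-1.44) lie to the left.

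After knockdown of Tfap4 in KO cells Ptch1 and Gli2 fell among the pathway genes, while Gli1, Hhip, Smo, Sufu, Gli3, Boc and Gas1 did not pass the test. Whether a change was a direct effect of this factor was not tested. The genes were chosen with earlier results of these data known, though Hhip was not chosen by siTfap4 against siNeg. That comparison shares no library with KO against WT. But siNeg against KO shares libraries with each of these, so no likeness between comparisons is read from them. In edgeR 2 of 9 members were called, both lower, where 15.4% of all tested genes were called, 11.1% lower and 4.36% higher. At an unadjusted p under 0.05 in edgeR the members' count was 4 (Hhip, Ptch1, Gli2 and Gli3, all lower). Over all 15137 tested genes 4675 had such a p. At the adjusted threshold the members' count was 2 in DESeq2 and 2 in limma-voom. The median log2 fold change was -0.52 over the 9 genes and 0.01 over all tested genes. The same count of 2 came from each of the 13 alternative settings.

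Gli2 stood at 39.0 and 36.4 CPM in siNeg and at 4.46 and 10.3 CPM in siTfap4, from 455, 376, 35 and 87 counts. Every siTfap4 library was thus below every other library of the study, where the lowest Gli2 level was 36.4 CPM. The log2 fold change was -2.35 (SE 0.34; adjusted p = 0.000326, edgeR), a mean 5.12-fold lower. It was -3.09 without siTfap4 replicate 2 and -1.89 without siTfap4 replicate 1, and over all settings the adjusted p was at most 0.00872.

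Ptch1 stood at 214 and 201 CPM in siNeg and at 59.0 and 93.9 CPM in siTfap4. The fall was 2.72-fold in mean CPM, with a log2 fold change of -1.44 (SE 0.25; adjusted p = 0.00144, edgeR). In siTfap4 the gene was nearer to the WT libraries, at 47.4 and 50.3 CPM, than to the untreated KO libraries. Those WT libraries are untreated and of the other set. Genotype, transfection, knockdown and set thus differ together there and cannot be told apart. With the correction for 3′ base composition the log2 fold change was -1.03 (adjusted p = 0.0101).

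Gli1 stood at 77.4 and 72.4 CPM in siNeg and, after knockdown, at 107 and 85.6 CPM (log2 fold change 0.36, SE 0.23; adjusted p = 0.315). It was the highest of all groups in siTfap4, and its libraries there did not overlap with those of siNeg. Gli3 stood at 7.03 and 5.13 CPM in siNeg and, after knockdown, at 2.80 and 3.18 CPM (log2 fold change -1.02, SE 0.43; adjusted p = 0.118). Sufu was at 0.34 (SE 0.28; adjusted p = 0.428), Smo at 0.05 (SE 0.48; adjusted p = 0.955) and Boc at -0.65 (SE 0.56; adjusted p = 0.458). Gas1, with 6 counts over siNeg and 5 over siTfap4, was too low for a change to be detectable at this depth.

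Pluripotency markers moved with this comparison as well: of 8 tested, 2 rose and 2 fell, where 15.4% of all genes were called. In KO against WT 1 of the 8 fell, where 9.95% of all genes were called. The pluripotency factor gene Pou5f1 was at 26.4 CPM in siNeg and 53.7 CPM in siTfap4 (adjusted p = 0.0121), and Lin28a, which encodes an RNA-binding protein, at 64.1 and 112 CPM (adjusted p = 0.0342). Dppa5a, a gene of the naive state, was at 440 CPM in siNeg and 6.57 CPM in siTfap4 (adjusted p = 1.39e-07), and the transcription factor gene Nanog was at 364 and 129 CPM (adjusted p = 0.00403). The part of this shift in the Ptch1 and Gli2 values was not tested.

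Ratios of counts within a library need no scaling for depth, and they describe how the targets parted. They hold no correction for 3′ base composition. That correction moved the log2 fold change in siTfap4 against siNeg from -0.52 to -0.01 for Hhip and from -1.44 to -1.03 for Ptch1. For each Gli1 count, WT libraries had 2.08 and 1.80 counts of Ptch1, KO libraries 2.95 and 2.56, siNeg libraries 2.76 and 2.78 and siTfap4 libraries 0.553 and 1.10. The siTfap4 ratios thus lay below all others, including WT. Of Hhip, WT libraries had 0.0857 and 0.0729 counts per Gli1 count, KO libraries 1.30 and 1.19, siNeg libraries 1.06 and 0.854 and siTfap4 libraries 0.472 and 0.583. Here siTfap4 lay between WT and siNeg. Gli2 per Gli1 was lower in KO (0.523 and 0.767) than in WT (2.01 and 1.37) and lowest in siTfap4 (0.0418 and 0.120). The WT libraries and those of the siPOOL groups come from different sets, so genotype, transfection and set cannot be told apart between them. The ratios are a description and were not tested.

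**Figure D3:**
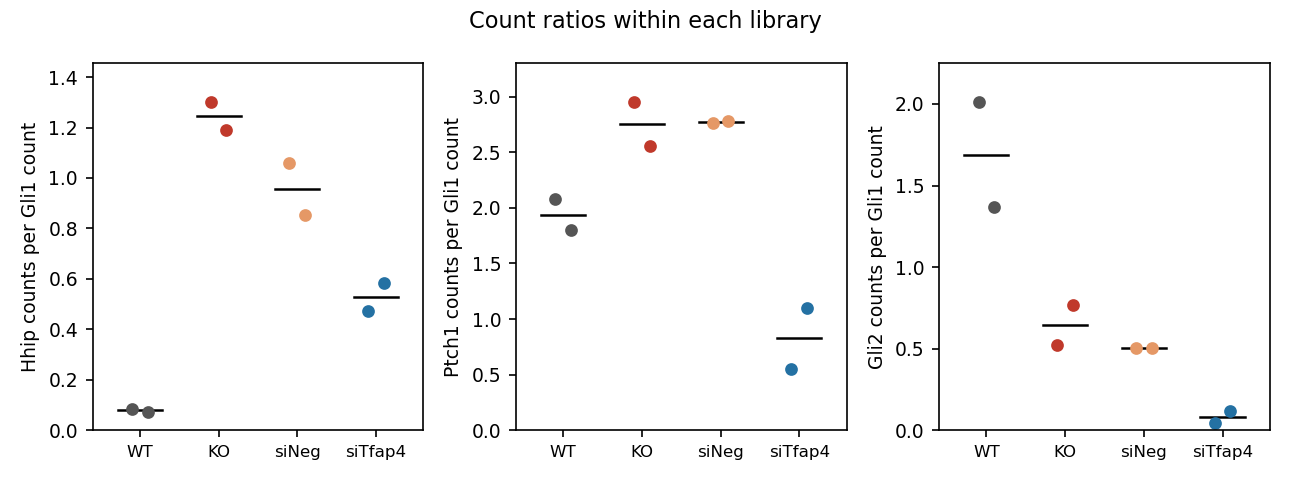
Counts of Hhip, Ptch1 and Gli2 per count of Gli1 in each library, on linear axes that start at 0, with bars at group means. Ptch1 per Gli1 lies between 1.80 and 2.95 outside siTfap4 and at 0.553 and 1.10 in siTfap4.

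Between siNeg and untreated KO cells, 0 of the 9 genes were called by edgeR, DESeq2 or limma-voom. The KO libraries there also served to choose Hhip, so for Hhip this is no fair test. Over all tested genes edgeR called 0.00661%. An unadjusted p under 0.05 in edgeR was reached by 1 of the 9 genes, beside 1737 of all 15137 tested genes. The 1 gene was Gas1, with 17 and 27 counts in KO and 5 and 1 in siNeg (log2 fold change -2.64, SE 0.74; adjusted p = 0.158). Without siNeg replicate 1 the value was -4.02, and without siNeg replicate 2 it was -2.0; with each library left out in turn it had an adjusted p of 0.198 to 0.735. Gas1 was also low in siTfap4, with 3 and 2 counts, so that all 4 libraries of the siPOOL set lay below the untreated ones. This difference runs with the set and the transfection, which cannot be told apart.

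The ligands themselves were scarcely detected. Shh held 1 count in each WT library and 0 in the other 6 libraries, Ihh 0 to 6 counts and Dhh 0 to 13 counts in a library, and none of these passed the filter. Of 9 genes for ligands and their release, 5 were tested. Between KO and WT 0 of them were called by edgeR, DESeq2 or limma-voom, where edgeR called 9.95% of all genes. An unadjusted p under 0.05 in edgeR was reached by 2 of them, beside 3530 of all 15137 tested genes. After knockdown 1 of the 5 was called, 20.0% against 15.4% of all genes. In siTfap4 Disp1, which encodes a transporter that releases ligand, rose from 7.54 ± 1.93 to 16.2 ± 1.40 CPM (log2 fold change 1.11, SE 0.32; adjusted p = 0.0270). Disp1 overlaps an annotated pseudogene. That call was lost without siNeg replicate 1 (adjusted p = 0.204) or siTfap4 replicate 1 (0.183), in the 4 libraries alone (0.0541) and with the 3′ base composition correction, alone (0.0542) or with the replicate block (0.0571).

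Other receptors and coreceptors included several genes that were lower after knockdown. Of 7 tested, 1 rose in KO (14.3%, against 9.95% of all genes). In siTfap4 3 fell and 1 rose (57.1%, against 15.4% of all genes). Lrp2, an endocytic receptor for hedgehog ligand, rose in KO (41.0 ± 0.06 against 19.4 ± 2.47 CPM; adjusted p = 0.0373) and fell in siTfap4 (15.0 ± 5.41 against 40.4 ± 16.2 CPM; adjusted p = 0.00806). The KO call went when any library of KO or WT was left out (adjusted p 0.0896 to 0.194), and the siTfap4 call went without siNeg replicate 1 (0.129) or siTfap4 replicate 2 (0.0521). Gpc3, a glypican that competes with PTCH1 for ligand, fell in siTfap4 from 33.4 ± 13.1 to 12.5 ± 1.48 CPM (adjusted p = 0.00582). That call did not hold without siNeg replicate 1 (0.0919) or siTfap4 replicate 1 (0.0838). Between KO and WT Gpc3 was at 60.9 ± 8.43 and 33.4 ± 2.47 CPM (adjusted p = 0.0626), and it passed with no filter (0.0493) and in the 4 libraries alone (0.0170). Evc, a ciliary partner of SMO, rose from 13.4 ± 0.27 to 27.0 ± 5.72 CPM (adjusted p = 0.0296). The Evc call was lost without siNeg replicate 1 (0.144), siNeg replicate 2 (0.100) or siTfap4 replicate 1 (0.269), in the 4 libraries alone (0.0515) and with the base composition correction, alone (0.147) or with the replicate block (0.136). Evc overlaps Crmp1 on the other strand, which held at most 174 counts in a library, against 136 to 244 for Evc.

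Of 11 intracellular regulators tested, 1 rose in KO (9.09%, against 9.95% of all genes) and 1 fell in siTfap4 (9.09%, against 15.4% of all genes). DESeq2 called 2 in siTfap4, and the count over all settings ran from 0 to 3. Mgrn1, a ubiquitin ligase that acts on SMO, rose in KO from 42.1 ± 2.17 to 75.6 ± 2.14 CPM (log2 fold change 0.85, SE 0.23; adjusted p = 0.0280). Leaving out any KO or WT library ended that call (0.109 to 0.190). Kif7, a ciliary kinesin that controls GLI processing, fell in siTfap4 from 14.9 ± 0.70 to 5.69 ± 2.29 CPM (adjusted p = 0.0168). It overlaps Ticrr on the other strand, which held up to 1155 counts in a library, against 32 to 186 for Kif7. The strand setting of the counting is not given, so reads of the 2 genes may not be told apart. The Kif7 call was lost without siNeg replicate 1, siNeg replicate 2 or siTfap4 replicate 1. With 1 library left out the log2 fold change ran from -1.88 to -1.03. The call was also lost with the base composition correction, alone (0.0746) or with the replicate block (0.0594).

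Of 19 reported targets of GLI factors, 10 were tested. In KO 2 rose and 0 fell (2 of 10 called, against 9.95% of all genes), and in siTfap4 0 rose and 3 fell (3 of 10, against 15.4%). Ccnd2, which encodes cyclin D2, was at 17.4 and 15.7 CPM in WT and 400 and 478 CPM in KO (log2 fold change 4.73, SE 0.30; adjusted p = 2.2e-07), and at 256 ± 87.7 CPM in siNeg and 266 ± 43.3 CPM in siTfap4 (adjusted p = 0.913). Mycn, a MYC family gene, rose in KO (188 ± 16.6 against 85.2 ± 25.2 CPM; adjusted p = 0.0362) and fell in siTfap4 (60.4 ± 35.2 against 142 ± 0.08 CPM; adjusted p = 0.0210). Its KO call was lost without KO replicate 1 (0.178), KO replicate 2 (0.0921) or WT replicate 2 (0.247). Its siTfap4 call was lost without siNeg replicate 1 (0.123), siNeg replicate 2 (0.0765) or siTfap4 replicate 1 (0.197) and with the base composition correction (0.0888).

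Ccnd1, which encodes cyclin D1, fell in siTfap4 from 230 ± 14.3 to 94.5 ± 16.4 CPM (adjusted p = 0.00938). That call did not hold without siNeg replicate 1 (0.0543) or siTfap4 replicate 1 (0.126). Ccnd1 overlaps a gene on the other strand. Its log2 fold change in KO against WT was 0.62 (SE 0.29; adjusted p = 0.214) and passed without WT replicate 1 (1.30; adjusted p = 0.0206). Snai1, a repressor of epithelial genes, fell in siTfap4 from 4.37 ± 0.85 to 0.840 ± 0.65 CPM (adjusted p = 0.0119). That call did not hold without siNeg replicate 1 (0.0955) or siTfap4 replicate 1 (0.183) and with the base composition correction (0.0511). Patterning targets of hedgehog signalling in the embryo were near or at 0: Foxf1 held no count in any library, and Nkx2-2, Nkx6-1 and Olig2 held at most 5 counts in any.

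Genes of the primary cilium, where the pathway operates, were present throughout, and all 12 listed were tested. Between KO and WT 0 were called by edgeR or limma-voom and 1 by DESeq2, where edgeR called 9.95% of all genes. An unadjusted p under 0.05 in edgeR was reached by 2, beside 3530 of all 15137 tested genes. In siTfap4 1 fell (8.33%, against 15.4% of all genes called). This was Tulp3, which brings receptors into the cilium, at 20.6 ± 2.66 CPM in siNeg and 5.87 ± 2.54 CPM in siTfap4 (log2 fold change -1.80, SE 0.32; adjusted p = 0.00163), called in every alternative.

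Across these 5 lists, 45 of 59 genes were tested. Between KO and WT 4 rose and 0 fell, 8.89% of those tested against 9.95% of all genes. In siTfap4 against siNeg 2 rose and 8 fell, 22.2% against 15.4%. Between siNeg and KO 0 of 45 were called by edgeR, DESeq2 or limma-voom, and 4 had an unadjusted p under 0.05 in edgeR. Over all 15137 tested genes edgeR called 0.00661%, and 1737 had an unadjusted p under 0.05. The median log2 fold change of the lists was 0.05 and -0.08, beside -0.01 and 0.01 over all tested genes. The first count was 1 without either KO library and 1 without WT replicate 2, and the second was 2 without siNeg replicate 1 and 3 without siTfap4 replicate 1.

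**Figure D4:**
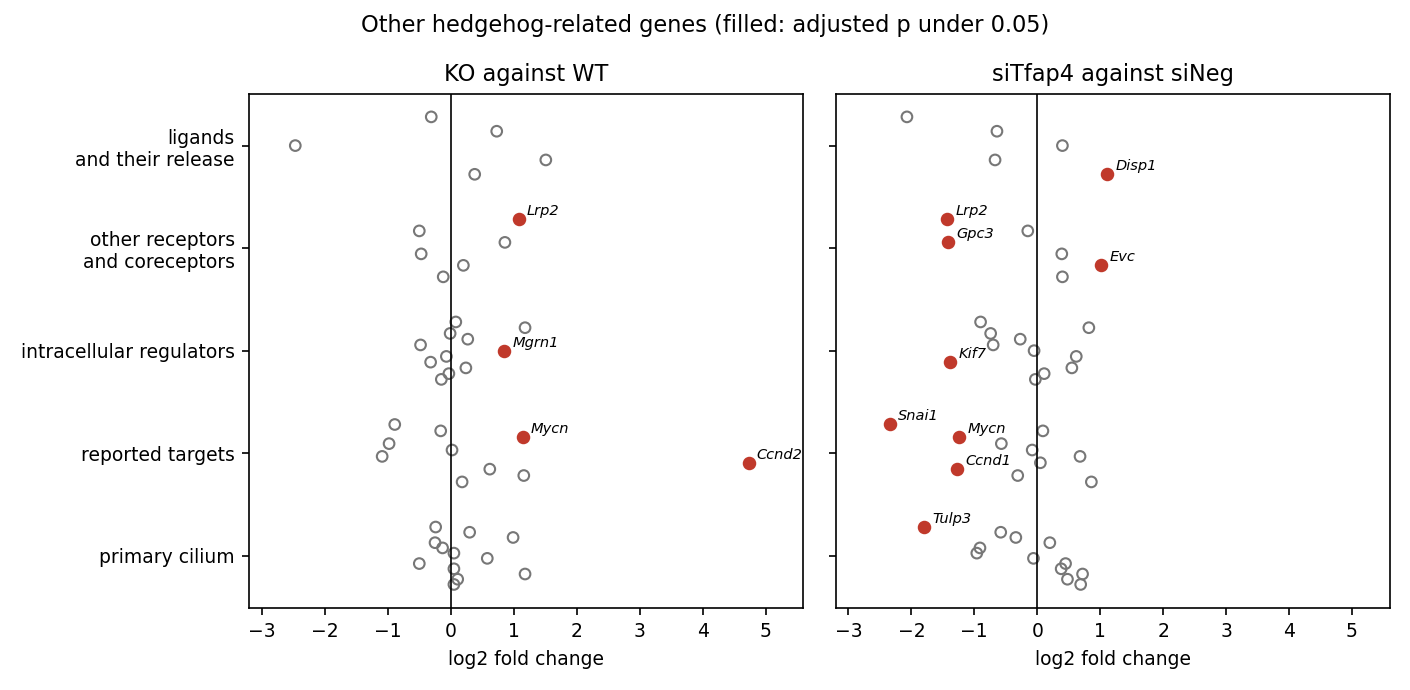
Log2 fold changes of the other hedgehog-related genes shown here, by list, in KO against WT and in siTfap4 against siNeg; each point is a gene and filled points have an adjusted p under 0.05. In KO against WT Ccnd2 lies at 4.73, and in siTfap4 against siNeg the filled points of Disp1 and Evc lie right of 0 and the other filled points left of it.

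Likeness to Hhip in the pattern over the 8 libraries was described by Pearson's r of log2 CPM, over 9583 genes with a group mean of at least 10 CPM. The libraries share the contrast for which Hhip was chosen, and a gene near 0 in WT passes this filter only through the KO-cell groups where it is high, so a high r follows in part from the choice. Of the 9 pathway genes, Smo, Gli3, Boc and Gas1 lay under the filter and were not ranked. Among the 6 highest were Adh7 (0.991), Gna14 (0.988), Slc27a2 (0.987), Serpinf1 (0.983) and Bace1 (0.982). Adh7, a retinol-metabolising alcohol dehydrogenase gene, averaged 0.364 CPM in WT and, in KO, siNeg and siTfap4, 10.6, 8.50 and 8.24 CPM. Gna14, a G protein subunit gene, averaged 0.794 CPM in WT, 22.7 CPM in KO and 21.5 CPM in siTfap4. Gli1 ranked 92 with 0.944 and Ptch1 562 with 0.819, while Gli2 was at -0.164 and Sufu at 0.323.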

How the data were processed

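The authors deposited raw counts per gene for 8 QuantSeq 3′ mRNA libraries, with no normalization. Per the submitters' processing notes, reads were trimmed with Trim Galore and the build was GRCm38. Which aligner, counting tool, strand setting and annotation release served is not given in the sources used here. Symbols from GENCODE M21 matched 99.67% of the gene identifiers.

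Genes were filtered with filterByExpr (15137 left), scaled with TMM factors and fitted with the quasi-likelihood method of edgeR 4.0.16 in R 4.3.3 (robust, not legacy). The fit had 4 group means over all 8 libraries and 4 residual degrees of freedom. P-values were adjusted by Benjamini-Hochberg over all tested genes, with a threshold of 0.05. SE values are the log2 fold change over the square root of F. Log2 CPM used a prior count of 2. Totals per library were 8326675 to 12726123 counts; with 2 libraries a group, precision is limited most for genes of few counts.

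The members, the lists and the tests were chosen with earlier results of these data known. Named by rule were all members, the called genes of each list (the 4 largest where more) and the 6 genes most like Hhip; some of these are not reported here, though counts over the lists include them. Alternatives were DESeq2 1.42.0, voom in limma 3.58.1, the legacy fit, 2 other filters, the 4 libraries alone, a replicate block, and each library left out (a lone library is assumed to vary like the others). A lowess correction (span 0.3) for GC of the last 100 bases, alone and with the block, and, for KO against WT, a block for the code shared in 2 sample titles were chosen after seeing the data.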

Additional observations from a re-analysis of the deposited data

How the results depend on the processing

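In KO against WT, Hhip, Ptch1 and Gli1 stayed within 1 SE of their value under all 14 alternatives. On the log2 scale they ran from 5.51 to 5.74, 2.01 to 2.32 and 1.52 to 1.81. Boc and Gli3 each moved by more than 1 SE in 1 alternative. These refits reuse the libraries by which Hhip was chosen, so they describe the fit and give the differences no support. The calls of Ptch1 and Gli2 in siTfap4 against siNeg held in all 13 alternatives for that comparison. Leaving out 1 library gave 629 to 880 called genes for KO against WT (1506 in all), 522 to 2961 for siTfap4 against siNeg (2334) and 1 to 76 for siNeg against KO (1), and 1 to 4 and 2 to 13 wider hedgehog genes for the first and the second. For siNeg against KO, 138 genes were called by DESeq2, 120 with no filter, 2 in the 4 libraries alone, 14 with the base composition correction and 28 with that and the block. The last setting gave 7 wider hedgehog genes for KO against WT. With the replicate number as a block, 1337, 2064 and 18 genes were called in the 3 comparisons, and Hhip was at 5.63, -0.51 and -0.46. Deviations of same-numbered libraries correlated at -0.03 between WT and KO, 0.12 between siNeg and siTfap4 and -0.02 between KO and siNeg, so the numbers were not taken to pair libraries. A block for the code in the titles of WT replicate 1 and KO replicate 2 gave 1443 called genes for KO against WT and 5.62 for Hhip.

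Several uncalled values changed sign. With the base composition correction, alone and with the block, Smo was at -0.07 and -0.03 and Mgrn1 at 0.16 and 0.16 in siTfap4, and Ptch1 at 0.02 and 0.01 in siNeg against KO. Over the libraries left out, the values ran from -0.34 to 0.59 for Smo, -0.48 to 1.54 for Gas1, -0.20 to 0.05 for Mgrn1 and -0.27 to 0.44 for Ccnd2 in siTfap4, from -0.22 to 0.08 for Ptch1, -0.13 to 0.35 for Sufu and -0.24 to 0.61 for Boc in siNeg against KO, and from -0.08 to 0.54 for Evc, -0.20 to 0.29 for Sufu, -0.27 to 0.49 for Gas1 and -0.03 to 0.73 for Gli3 in KO against WT. In that comparison Boc was at -1.73 without KO replicate 2 and Gli3 at 0.73 without WT replicate 1. The cause was not tested. Changes of genes with few counts, such as Gas1, Boc and the ligands, could be missed at this depth.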
